A study of Drosophila melanogaster with 26 samples.

Results

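The comparison described here is that of S2 cells after *jil-1* RNAi with S2 cells after control RNAi. Samples were chosen by their labels, and 10 of the 26 samples of the series belonged to it, 5 for each condition. JIL-1 is a kinase that phosphorylates serine 10 of histone H3 in interphase. It forms a complex with the PWWP-domain protein JASPer, binds along active genes, is enriched on the single X chromosome of males, and counteracts the spreading of heterochromatin. In males the MSL dosage compensation complex raises the transcription of the same chromosome, so that changes of X-linked genes are of particular interest in a male line.

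The study measured RNA by paired-end RNA-seq after depletion of ribosomal RNA in S2 and Kc cells, following control, *jasper* or *jil-1* RNAi. S2 is a *Drosophila* line of embryonic origin, labelled male, with properties of hemocytes, the blood cells of flies, and Kc is an embryonic line labelled female. Cells received double-stranded RNA at 10 µg/mL, were split and treated again after 3 days, and were collected after 4 more days. Control cells received double-stranded RNA against the foreign genes *gst* or *gfp*, and the labels do not say which, nor which of the sequences against *jil-1* or which kit for ribosomal RNA was used for a sample. The S2 samples carried replicate numbers 4 and 5 (batch 1), 8 and 9 (batch 2) and 11 (batch 3) in both conditions. Values in lists follow this order. No label says that replicates were separate cultures, so that all p-values measure the spread between these samples.

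Reads on the strand of genes ranged from 4313711 to 16383451 per sample in control cells and from 4038886 to 17648358 upon *jil-1* RNAi. The median was 9483334 in control cells and 10972867 upon *jil-1* RNAi. Reads on *JIL-1* itself were left out of all tests because the double-stranded RNA contributes to them. Reads on the strand opposite to *JIL-1*, which served as a check of the labels, were between 110 and 379 CPM (counts per 1000000 reads on genes, scaled by TMM in the results that follow but not in this paragraph) in the 5 *jil-1* RNAi samples and between 2.85 and 12.8 in the controls. Of the hemocyte genes that define the line, *Pxn* had 1205 to 4755 CPM in control cells, *vkg* 3310 to 4401, *srp* 148 to 207 and *eater* 183 to 228, whereas *Hml* had only 18.1 to 43.2. The male-specific *msl-2* had 46.5 to 51.0 CPM in control cells and *lncRNA:roX2* 705 to 783, whereas *lncRNA:roX1* had only 0.977 to 24.8. Muscle myosin *Mhc* had at most 0.844 CPM, the testis tubulin gene *betaTub85D* at most 0.232 and the neuronal gene *elav* between 25.4 and 37.6 CPM in all 10 samples. Replicate 11, the only sample of batch 3 in each condition, stood apart from the other replicates for many of the genes described. In these bulk samples fewer cells of a kind and less RNA per cell cannot be told apart.

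Upon *jil-1* RNAi more genes fell than rose, and most changes were small. Of 8464 genes with reads in every S2 sample, 771 (9.11%) were higher and 1040 (12.3%) lower, 21.4% in all, at an adjusted p of 0.05 (edgeR's quasi-likelihood test with Benjamini-Hochberg adjustment and batch as a block). Without control replicate 8 the number of higher genes was 465, and without the batch block 202 genes were higher and 347 lower. The median size of the change was 0.25 on the log2 scale among genes that rose and 0.31 among genes that fell. A change of at least 1 was seen for 40 genes that rose and 118 that fell. The direction was the same in all 5 same-numbered pairs for 651 of the genes that rose, 902 of those that fell and 2390 of all 8464 genes tested. The CPM of both conditions did not overlap for 251 of the genes that rose and 313 of those that fell, and for 7.31% of all genes tested. The calls rest on the same samples, so that these counts are no separate support for them.

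Genes that fell had higher levels, by their median, than genes that rose. When the 8464 genes were divided into 5 groups of nearly equal size by mean CPM, 325 of the 1693 genes in the highest group (above 124 CPM) fell and 61 rose. In the middle group, between 25.6 and 56.6 CPM, 247 rose and 150 fell. The median CPM was 67.9 for genes that fell, 37.6 for genes that rose and 38.6 for all genes tested. Their exons covered a median of 2396 bp, 1880 bp and 1987 bp, and the span of the gene was 3610 bp, 2372 bp and 2537 bp. Among noncoding RNA genes 41 of 397 (10.3%) fell and 7 (1.76%) rose, against 12.3% and 9.11% of all genes tested. Their median log2 fold change was -0.16, and it ranged from 0.10 in pair 5 to -0.42 in pair 8.

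**Figure D1:**
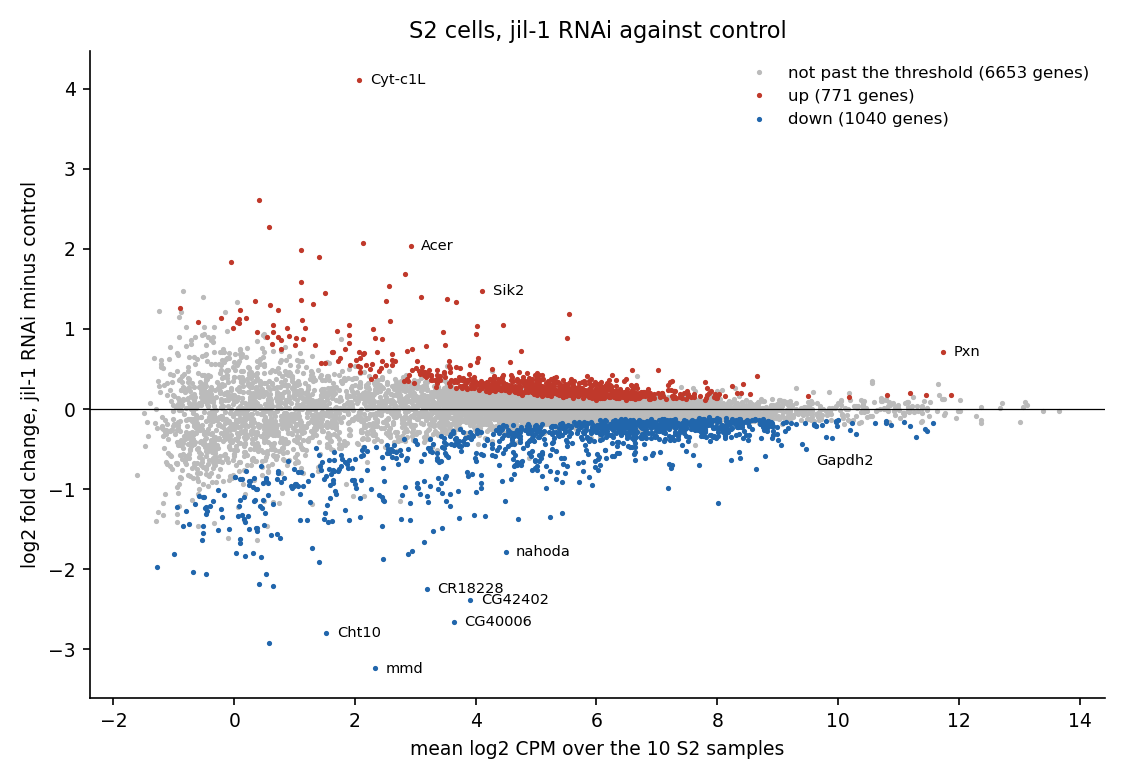
Log2 fold change upon *jil-1* RNAi against mean log2 CPM over the 10 S2 samples, with 1 point for each of the 8464 genes tested. Red points mark the 771 genes that rose and blue points the 1040 that fell at an adjusted p of 0.05, and grey points the rest. *Cyt-c1L* stands alone at the top, and among abundant genes falls outnumber rises.

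Among called genes whose mean log2 CPM was 1 or more and that kept 1 direction in all 5 pairs, the largest rises belonged to genes with low levels in control cells. *Cyt-c1L* (FBgn0039651; chromosome arm 3R, 29202660 to 29204133 in release 6), a paralog of the cytochrome c1 gene of respiratory complex III, had 0.425, 1.11, 1.22, 1.59 and 0.768 CPM in control cells and 11.7, 12.05, 20.7, 20.9 and 14.69 CPM upon *jil-1* RNAi. Every *jil-1* RNAi sample was far above every control (log2 fold change 4.11, standard error 0.18, adjusted p = 2.4e-10). Its paralog *Cyt-c1* had 163 to 199 CPM in control cells and 167 to 213 CPM upon *jil-1* RNAi. *Acer* (FBgn0016122; 2L, 8521933 to 8525740), which encodes a homologue of angiotensin-converting enzyme, had 3.04, 3.77, 2.74, 3.63 and 6.04 CPM in controls and 12.8, 13.3, 11.8, 13.6 and 24.9 CPM upon *jil-1* RNAi. Replicate 11 was the highest of each condition, and the conditions did not overlap (log2 fold change 2.04, standard error 0.11, adjusted p = 4.1e-09). *Sik2* (FBgn0025625; X, 2055310 to 2061915), a salt-inducible kinase, rose from 8.92, 9.53, 8.83, 12.7 and 12.4 CPM to 23.8, 29.1, 30.4, 26.5 and 31.8 CPM, again without overlap (log2 fold change 1.48, standard error 0.14, adjusted p = 2e-06).

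The other large rises were those of *CG34355* (2.08), *CG8301* (1.98), *shf* (1.90), *CG6495* (1.69), *CG10738* (1.59), *Nnf1b* (1.53) and *SkpB* (1.44), with log2 fold changes in parentheses and adjusted p between 1.7e-06 and 0.00046. *shf* encodes a secreted protein that aids the spread of Hedgehog, *Nnf1b* a subunit of the kinetochore and *SkpB* a relative of the Skp1 subunit of SCF ubiquitin ligases. *Nnf1b* (FBgn0051658; 2L, 810577 to 811531) had 2.27, 3.32, 3.53, 3.85 and 4.39 CPM in controls and 9.69, 7.28, 10.2, 9.62 and 11.4 CPM upon *jil-1* RNAi. *shf* (FBgn0003390; X, 6771463 to 6779659) had 1.35, 2.22, 0.548, 1.36 and 1.43 CPM in controls and 4.01, 6.78, 4.03, 3.60 and 5.004 CPM upon *jil-1* RNAi. Neither overlapped between conditions, and of the 10 largest rises only *CG10738* had overlapping CPM.

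By the same rule, the largest falls included membrane proteins and enzymes of diverse function. *mmd* (FBgn0259110; X, 15946936 to 15973159), which encodes a membrane-bound metalloprotease of the ADAM family, had 13.1, 14.2, 13.1, 8.16 and 36 CPM in controls and 1.86, 2.26, 0.484, 0.559 and 5.66 CPM upon *jil-1* RNAi. Replicate 11 was the highest of each condition, and no *jil-1* RNAi sample reached a control (log2 fold change -3.24, standard error 0.27, adjusted p = 5.5e-07). *CG40006* (FBgn0058006; 2L, 22622417 to 22756349) had 30.0, 30.8, 25.9, 22.7 and 47.4 CPM in controls and 6.34, 6.27, 3.71, 3.04 and 6.20 CPM upon *jil-1* RNAi. *nahoda* (FBgn0034797; 2R, 22896174 to 22916719) had 48.1, 42.8, 60.2, 55.1 and 18.1 CPM in controls and 14.4, 13.6, 16.4, 17.1 and 4.46 CPM upon *jil-1* RNAi. For *nahoda* replicate 11 was the lowest of each condition, and the conditions did not overlap (log2 fold change -1.79, standard error 0.067, adjusted p = 3.4e-11). The other large falls were those of *Cht10* (-2.80), a chitinase gene, *CG42402* (-2.39), the pseudogene *CR18228* (-2.25), the odorant receptor gene *Or67b* (-1.91), *CG4267* (-1.88), the cytochrome P450 gene *Cyp12a5* (-1.81) and the acetylcholine receptor subunit gene *nAChRalpha4* (-1.78). Only *Cyp12a5* overlapped between conditions, at 10.3 to 29.5 CPM in controls and 1.56 to 11.1 CPM upon *jil-1* RNAi, where replicate 11 was the highest of each condition.

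Among highly expressed genes the changes were modest. *klar*, which encodes a KASH-domain protein that tethers nuclei and lipid droplets to microtubules, had 671, 656, 639, 602 and 911 CPM in controls and 749.8, 787, 727, 654 and 984 CPM upon *jil-1* RNAi (log2 fold change 0.17, standard error 0.045, adjusted p = 0.015). The ranges overlapped, but each *jil-1* RNAi sample was above the control of the same number. The tubulin gene *alphaTub84B* had 2296, 2412, 2538, 2581 and 2737 CPM in controls and 1912, 1999.6, 2277, 2391 and 2308 CPM upon *jil-1* RNAi (log2 fold change -0.21, standard error 0.045, adjusted p = 0.0035). It was lower in all 5 pairs, with overlapping ranges. FBgn0027571, a gene the annotation used here does not name, fell by 0.25 on the log2 scale (adjusted p = 0.0055). *CtsL1* (cathepsin L), *RpS30* and *tud* rose, by 0.20, 0.18 and 0.16 on the log2 scale. Their calls were lost with 1 library left out: *RpS30* without *jil-1* replicate 9 (adjusted p = 0.062), *tud* without control replicates 5 (0.077) or 11 (0.1) or *jil-1* replicates 4 (0.087) or 11 (0.1), and *CtsL1* without any of 7 libraries, up to an adjusted p of 0.1 without replicate 11 of either condition. The remaining genes of this kind, *Pxn*, *SPARC*, *RpS5a* and *RpS19a*, are described with their groups.

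**Figure D2:**
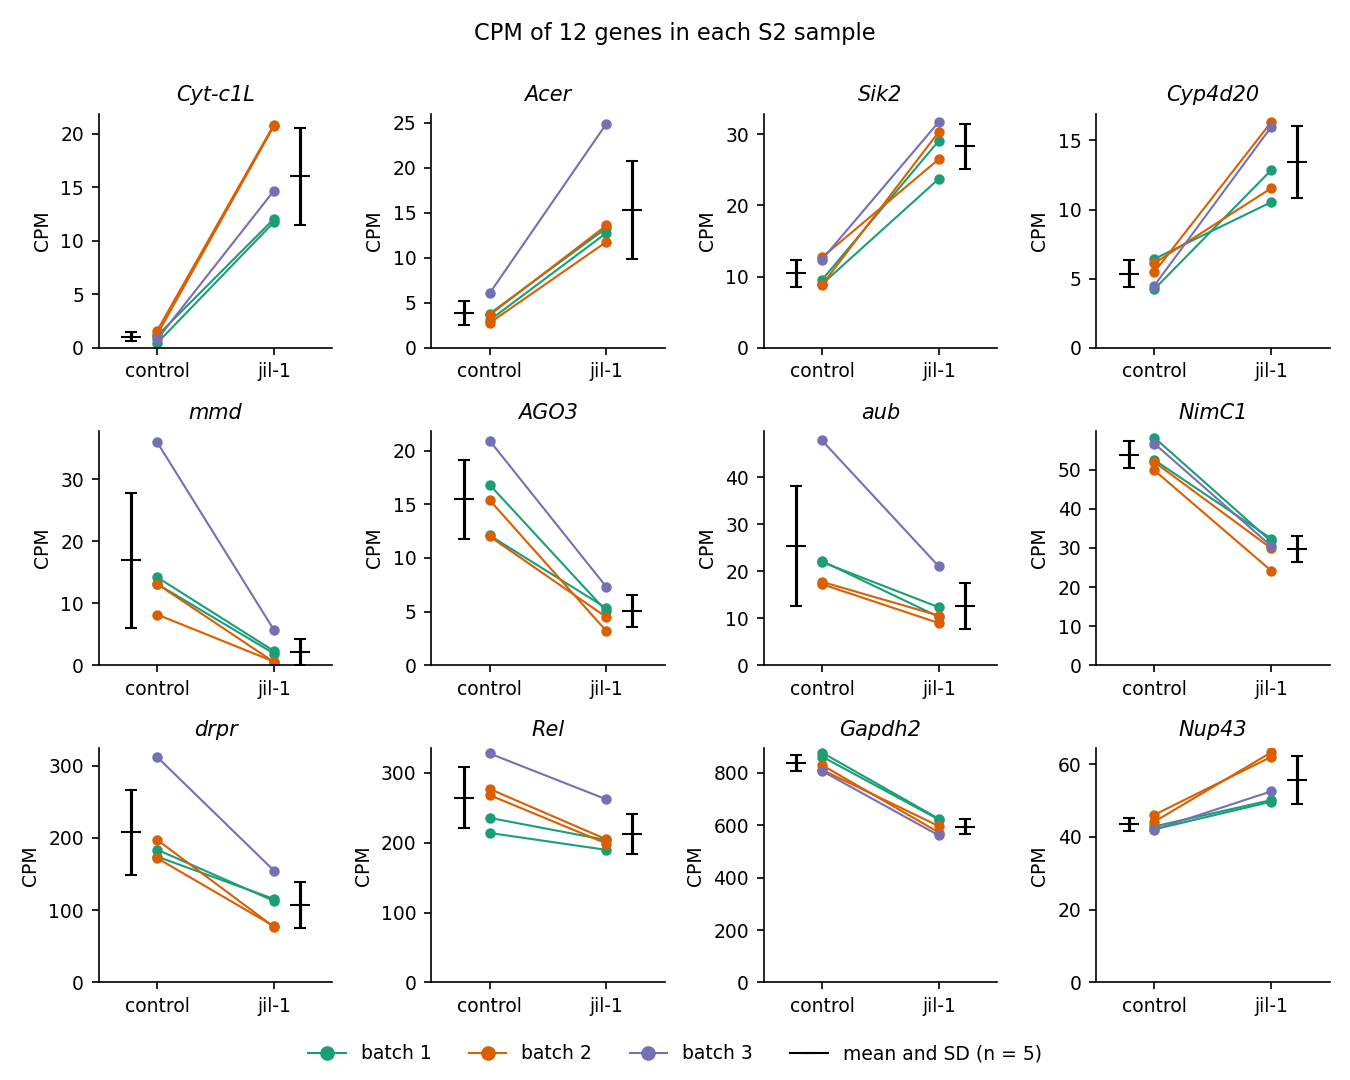
CPM of 12 genes in each S2 sample, with lines joining samples of the same replicate number and colours for the 3 batches, and with the mean and SD of the 5 samples of each condition beside them. Lines of a gene run in 1 direction in all panels, and batch 3 lies above the other batches for *Acer*, *mmd*, *AGO3*, *aub*, *drpr* and *Rel*.

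Among the lists of chromatin complexes that surround JIL-1, no gene of the dosage compensation complex, of heterochromatin proteins or of H3K36 methylation rose, and 12.5%, 9.09% and 25% of them fell, against 12.3% of all genes tested. Of the 8 genes of the dosage compensation list 1 fell, *Clamp*, by 0.14 on the log2 scale, and none fell without control replicates 4, 8 or 9 or *jil-1* replicates 5, 8 or 9. *msl-1*, *msl-2*, *msl-3*, *mof*, *mle* and both roX RNA genes did not pass the threshold. Of 11 genes of heterochromatin proteins 1 fell, *HP1b*, which encodes a member of the HP1 family and had 58.1, 60.3, 61.1, 56.2 and 52.6 CPM in controls and 50.8, 48.9, 48.0, 55.3 and 48.4 CPM upon *jil-1* RNAi. Its log2 fold change was -0.20 (adjusted p = 0.018), and the call was lost without control replicate 8 (adjusted p = 0.063) or *jil-1* replicate 8 (0.058). The gene of HP1a itself had a log2 fold change of -0.066 and did not pass the threshold. Of 8 genes for methylation of lysine 36 of histone H3 2 fell (1 without control replicate 9), among them the demethylase gene *Kdm2*, which had 171, 159, 151, 153 and 165 CPM in controls and 137, 151, 122, 125 and 143 CPM upon *jil-1* RNAi. The conditions did not overlap (log2 fold change -0.24, standard error 0.041, adjusted p = 0.00057).

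The called genes of the Polycomb and trithorax groups moved by small amounts. Of 16 Polycomb group genes 2 (12.5%) rose and none fell, against 9.11% and 12.3% of all genes tested. *E(z)*, the methyltransferase of PRC2, had 116, 99.9, 114.8, 122 and 96.5 CPM in controls and 133, 122, 137, 129 and 107 CPM upon *jil-1* RNAi and was higher in all pairs (log2 fold change 0.20, standard error 0.048, adjusted p = 0.0085). The other was *Sce*, the RING subunit of PRC1 (0.21). Of 14 genes of trithorax, COMPASS and Brahma complexes 3 (21.4%) rose and 2 (14.3%) fell. The H3K4 methyltransferase gene *trx* rose by 0.19 (adjusted p = 0.0038) and *Rbbp5*, a core COMPASS subunit, by 0.32 (adjusted p = 0.015) on the log2 scale. Of 8 genes for replacement histones and their chaperones 3 (37.5%) fell and none rose. The H3.3 gene *His3.3B* had 826, 893, 842, 871 and 845 CPM in controls and 782, 820.2, 657, 688 and 752 CPM upon *jil-1* RNAi, without overlap (log2 fold change -0.21, standard error 0.052, adjusted p = 0.0085). The count of 2 for the Polycomb group was 1 without control replicates 4, 8 or 9 or *jil-1* replicates 4 or 8. No trithorax group gene fell without control replicates 9 or 11 or *jil-1* replicates 4 or 11, 1 fell without any of the other libraries save *jil-1* replicate 8, and 1 replacement histone gene fell without control replicates 5, 8 or 9 or *jil-1* replicate 8. All 8 Hox genes had too few reads to be tested.

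The Argonaute genes *AGO3*, *aub* and *piwi* of the piRNA pathway, which silences transposons in the germline, all fell. *AGO3* had 12.1, 16.8, 15.4, 12.02 and 21.0 CPM in controls and 5.31, 5.02, 3.17, 4.47 and 7.29 CPM upon *jil-1* RNAi. Every *jil-1* RNAi sample was below every control (log2 fold change -1.66, standard error 0.15, adjusted p = 1.2e-06). Its partner *aub* had 22.2, 21.9, 17.7, 17.2 and 47.8 CPM in controls and 10.3, 12.3, 10.5, 8.94 and 21.0 CPM upon *jil-1* RNAi. Within each batch all *jil-1* RNAi samples were below the controls, while *jil-1* replicate 11 lay among the controls of batches 1 and 2 (log2 fold change -0.98, standard error 0.087, adjusted p = 1.2e-06). *piwi*, which acts in the nucleus, had 178, 165, 162, 154 and 169 CPM in controls and 149.9, 153, 120.0, 111 and 127 CPM upon *jil-1* RNAi, without overlap (log2 fold change -0.34, standard error 0.06, adjusted p = 0.00074). Of the 13 genes of the small RNA list 5 (38.5%) fell and none rose, and the median log2 fold change was -0.037 against 0.0034 for all genes. The remaining falls were those of *AGO2* and *Dcr-2* of the siRNA pathway, by 0.15 and 0.12 on the log2 scale (*Dcr-2* was named after its value was seen), and the count was 3 without replicate 8 or without replicate 9 of either condition.

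The cytosolic ribosomal protein genes that fell were all X-linked. Of 80 cytosolic ribosomal protein genes 6 (7.5%) fell and 3 (3.75%) rose, against 12.3% and 9.11% of all genes tested. All 6 that fell were among the 14 on the X, and the 3 that rose were among the 65 on the large autosomal arms (2L, 2R, 3L and 3R). The former had a median log2 fold change of -0.17 and the latter of 0.018. For comparison, 20.9% of all X-linked genes tested fell and 5.38% rose, against 10.2% and 10.0% of those on the autosomal arms. *RpS19a* had 3161, 3230.5, 3109, 3080.5 and 3173 CPM in controls and 2515, 3090.4, 2397, 2749.5 and 2295 CPM upon *jil-1* RNAi, with *jil-1* replicate 5 just above the lowest control and the other 4 below all controls (log2 fold change -0.28, standard error 0.07, adjusted p = 0.01). *RpL35* had 2198, 1917, 1890.5, 1893 and 2239 CPM in controls and 1887, 1749, 1616, 1665 and 1882 CPM upon *jil-1* RNAi, without overlap (-0.20, standard error 0.05, adjusted p = 0.0089). *RpL37-1* fell by 0.18 on the log2 scale (adjusted p = 0.0084). *RpS5a* fell by the same amount (adjusted p = 0.013), but not without replicate 11 of either condition (adjusted p = 0.056). Without those libraries 3 ribosomal protein genes fell, and the 3 rises became 6 without *jil-1* replicate 8, 0 without *jil-1* replicate 9 and 1 without control replicates 4, 5, 8 or 9 or *jil-1* replicates 4 or 5.

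X-linked genes also made up most of those that fell in other parts of the machinery that makes and folds proteins. Of 37 translation initiation factor genes 4 (10.8%, against 12.3% of all genes tested) fell and none rose. Of these, *eIF5*, *eIF4H1* and *eIF2alpha* were among the 6 on the X, the fourth, *eIF4G1*, lies on chromosome 4, and none of the 30 on the autosomal arms passed the threshold. With libraries left out, 2 genes of this list rose without *jil-1* replicate 5 or replicate 11 of either condition and 1 without control replicate 4. *eIF4H1* had 248, 285, 272, 284 and 252 CPM in controls and 209, 216, 225, 202 and 214 CPM upon *jil-1* RNAi (log2 fold change -0.33, standard error 0.047, adjusted p = 0.00016). *eIF5*, the GTPase activator of the initiation complex, had 387, 406, 369, 384 and 254 CPM in controls and 305, 306, 312, 300.1 and 208 CPM upon *jil-1* RNAi (log2 fold change -0.33, standard error 0.04, adjusted p = 3.3e-05). *eIF4H1* did not overlap between conditions, whereas *eIF5* was low in both samples of batch 3. The log2 fold changes of *eIF2alpha* and *eIF4G1*, the scaffold of the cap-binding complex, were -0.18 (adjusted p = 0.004) and -0.21 (adjusted p = 0.003).

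Of 34 proteasome genes 2 (5.88%) fell, *Rpt3*, an ATPase of the regulatory particle, and *Prosalpha4* of the core particle, both among the 4 on the X. *Rpt3* had 109, 121, 131, 141 and 132 CPM in controls and 82.7, 92.6, 110.3, 105 and 109 CPM upon *jil-1* RNAi and was lower in every pair (log2 fold change -0.35, standard error 0.05, adjusted p = 0.00017). *Prosalpha4* fell by 0.18 on the log2 scale (adjusted p = 0.016). Of 24 chaperone genes 3 (12.5%, against 12.3% of all genes tested) fell, again among the 4 on the X. These were the chaperonin subunit genes *CCT2* (-0.27, adjusted p = 0.00014) and *CCT6* (-0.32, adjusted p = 0.00028) and *Hsc70-3*, the BiP homologue of the endoplasmic reticulum. *Hsc70-3* had 1429, 1618, 1365, 1392 and 1267 CPM in controls and 1192, 1203, 1099.7, 1222 and 969 CPM upon *jil-1* RNAi, without overlap (log2 fold change -0.32, standard error 0.058, adjusted p = 0.0011). None of the 30 proteasome and 20 chaperone genes on the autosomal arms passed the threshold. Without *jil-1* replicate 5, 2 proteasome genes and 1 chaperone gene rose, and without control replicate 5 1 proteasome gene rose. Across the other processing settings up to 7 chaperone genes rose. Over the members of all 48 lists, 43 of 135 X-linked genes (31.9%) fell and 5 rose, and 73 of 758 genes on the autosomal arms (9.63%) fell and 77 rose.

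**Figure D3:**
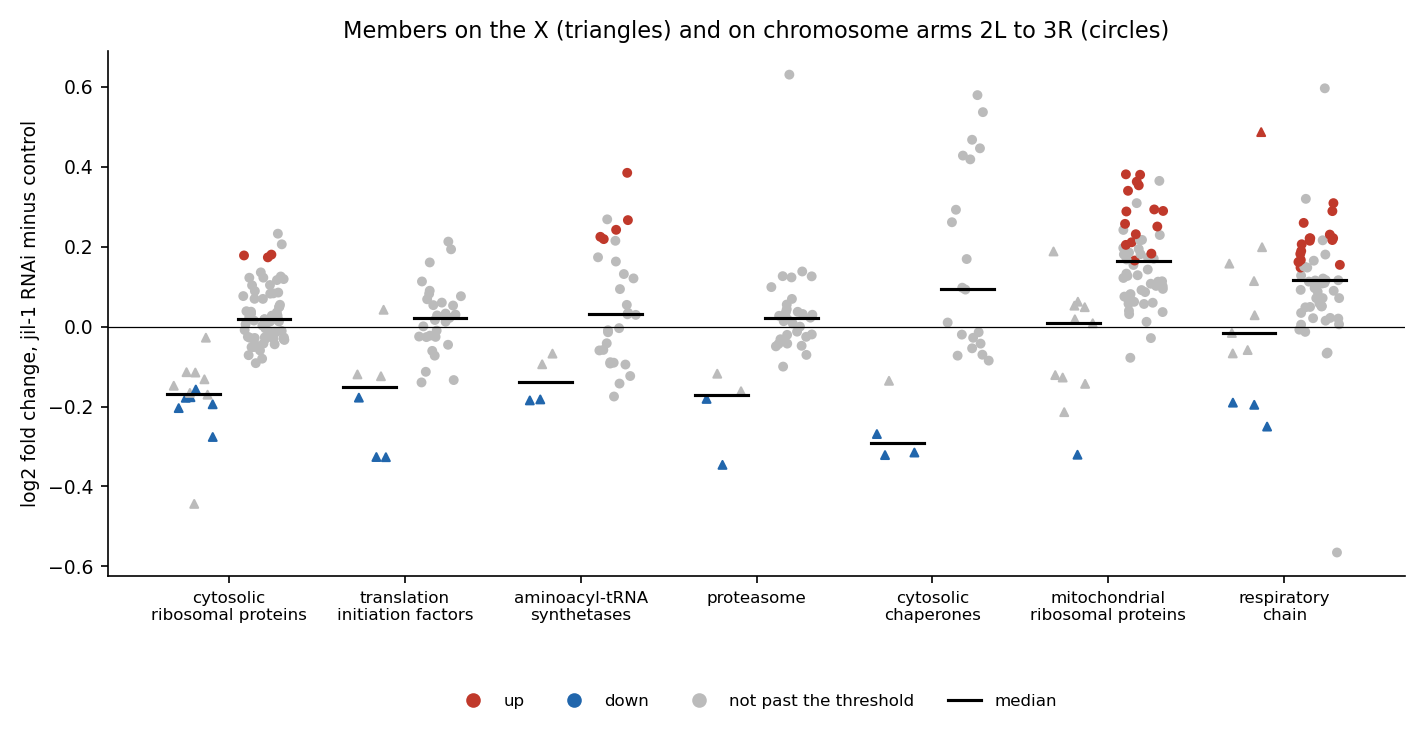
Log2 fold change upon *jil-1* RNAi of each tested member of 7 gene lists, with members on the X as triangles and members on the autosomal arms as circles, and without those on chromosome 4. Colours mark members that rose (red) or fell (blue) and black bars the medians. In the first 5 lists all members that fell are triangles, and in both mitochondrial lists all members that rose but 1 are circles.

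Nuclear genes of the mitochondrial ribosome and of the respiratory chain rose more often than they fell. Of 70 mitochondrial ribosomal protein genes 15 (21.4%) rose and 1 fell, with a median log2 fold change of 0.13. All 15 were among the 59 on the autosomal arms, and the 1 that fell, *mRpS30*, was among the 11 on the X. *mRpL46* had 23.6, 24.4, 25.6, 24.9 and 25.02 CPM in controls and 27.1, 31.9, 32.0, 34.5 and 33.0 CPM upon *jil-1* RNAi, without overlap (log2 fold change 0.35, standard error 0.064, adjusted p = 0.00099). *mRpS17* had 29.0, 24.8, 31.9, 31.3 and 27.7 CPM in controls and 35.3, 37.1, 37.6, 40.3 and 38.1 CPM upon *jil-1* RNAi, also without overlap (0.36, standard error 0.069, adjusted p = 0.0015). *mRpL2* rose by 0.38 (adjusted p = 0.0014), and *mRpS30* fell by 0.32 (adjusted p = 0.00089) on the log2 scale. The median over the list was above 0 in each of the 5 pairs, from 0.046 in pair 5 to 0.21 in pair 11. Without control replicate 8 only 8 members rose.

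Of 68 nuclear genes of the respiratory chain 17 (25%) rose and 3 fell, with a median log2 fold change of 0.11. On the autosomal arms 16 of 55 rose and none fell, while 1 of the 11 on the X rose and 3 fell. *ND-B14.7*, a subunit of complex I, had 65.6, 72.5, 75.1, 75.1 and 74.4 CPM in controls and 81.9, 86.1, 87.9, 102 and 84.6 CPM upon *jil-1* RNAi, without overlap (log2 fold change 0.29, standard error 0.05, adjusted p = 0.00074). *ND-39* of the same complex had 145, 139, 152, 150.1 and 139.6 CPM in controls and 158, 153, 183, 194 and 159 CPM upon *jil-1* RNAi (0.22, standard error 0.043, adjusted p = 0.0018), and *ND-13B* rose by 0.26 (adjusted p = 0.0034). The X-linked *UQCR-14*, a subunit of complex III, had 241, 210.3, 252, 259 and 182 CPM in controls and 177, 180.0, 222, 217 and 166 CPM upon *jil-1* RNAi (-0.25, standard error 0.047, adjusted p = 0.0013). The count of 17 was 11 without replicate 11 of either condition and 9 without control replicate 8 or *jil-1* replicate 9, and the 3 falls became 1 without control replicates 5, 8 or 9 or *jil-1* replicate 8. The median was -0.0023 in pair 5 and between 0.041 and 0.16 in the other pairs. None of the 13 tested genes of the mitochondrial genome passed the threshold.

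The aminoacyl-tRNA synthetase genes that rose encoded mitochondrial enzymes. Of 33 genes 5 rose, all on arms 3L or 3R, and 2 fell, both on the X. *LeuRS-m* had 45.6, 46.3, 41.7, 35.6 and 41.3 CPM in controls and 48.6, 46.9, 49.8, 51.2 and 56.2 CPM upon *jil-1* RNAi, without overlap (log2 fold change 0.27, standard error 0.063, adjusted p = 0.007). *MetRS-m* rose by 0.38 (adjusted p = 0.0055) and *TrpRS-m* by 0.22 (adjusted p = 0.011) on the log2 scale, and *LysRS* fell by 0.18 (adjusted p = 0.0045). Without control replicate 5 the number that fell was 5.

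Glycolytic genes fell in several cases. Of 12 genes 5 (41.7%) fell and none rose, with a median log2 fold change of -0.11, and 91.7% of the estimates were negative. *Gapdh2*, which encodes the major glyceraldehyde 3-phosphate dehydrogenase and is X-linked, had 877, 862, 829.6, 812 and 807 CPM in controls and 624, 622, 572, 597 and 561 CPM upon *jil-1* RNAi. The lowest control was far above the highest *jil-1* RNAi sample (log2 fold change -0.49, standard error 0.036, adjusted p = 1.6e-07). Its autosomal paralog *Gapdh1* had 293, 303, 274, 274 and 298 CPM in controls and 229.7, 243, 253, 266 and 250.1 CPM upon *jil-1* RNAi, also without overlap (-0.21, standard error 0.046, adjusted p = 0.0036). Reads that fit both paralogs equally are not counted in a table of uniquely aligned reads. Without replicate 11 of either condition only 2 glycolytic genes fell. Of 13 genes of fatty acid and sterol metabolism 4 fell and 1 rose. *bmm*, the triglyceride lipase brummer, had 46.6, 54.7, 54.9, 51.2 and 63.0 CPM in controls and 35.6, 33.1, 40.7, 40.2 and 44.1 CPM upon *jil-1* RNAi, without overlap (-0.47, standard error 0.059, adjusted p = 4.3e-05). *ACC*, which makes malonyl-CoA for fatty acid synthesis, fell by 0.24 on the log2 scale (adjusted p = 0.002), and 2 members of this list fell without replicate 11 of either condition. The 1 rise was lost without replicates 8, 9 or 11 of either condition or control replicate 4, and there were 2 without *jil-1* replicate 5.

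Genes of detoxifying enzymes changed in both directions. Of 48 cytochrome P450 genes 14 (29.2%) fell and 4 rose, with a median log2 fold change of -0.18 and a negative median in each of the 5 pairs. *Cyp4p3* had 6.51, 4.65, 5.72, 5.90 and 9.77 CPM in controls and 2.14, 2.51, 2.42, 2.36 and 3.59 CPM upon *jil-1* RNAi (log2 fold change -1.34, standard error 0.15, adjusted p = 1.5e-05). *Cyp28a5* had 34.3, 36.8, 27.0, 22.0 and 40.7 CPM in controls and 20.4, 21.8, 17.5, 17.57 and 19.7 CPM upon *jil-1* RNAi (-0.71, standard error 0.085, adjusted p = 2.2e-05). *Cyp4d20* went the other way, from 4.25, 6.43, 5.48, 6.12 and 4.50 CPM to 12.9, 10.5, 16.3, 11.6 and 15.99 CPM (1.40, standard error 0.17, adjusted p = 3.4e-05). None of these 3 genes overlapped between conditions.

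Of 28 glutathione S-transferase genes 9 rose and 6 fell. *GstE7*, *GstE8* and *GstE9*, which belong to the epsilon class on arm 2R, fell by 0.71, 0.58 and 0.31 on the log2 scale (adjusted p = 4.2e-06, 9.2e-06 and 0.001). *GstE7* had 46.0, 39.4, 42.4, 39.5 and 37.6 CPM in controls and 30.0, 28.4, 22.1, 24.7 and 23.1 CPM upon *jil-1* RNAi. *GstE13* of the same class rose, from 21.5, 16.6, 17.4, 18.4 and 21.9 CPM to 29.3, 31.9, 29.8, 27.3 and 27.0 CPM (0.59, standard error 0.093, adjusted p = 0.00033). None of these 4 overlapped between conditions. The epsilon genes are similar in sequence, and reads that could not be placed uniquely were not counted. The 9 rises became 3 without control replicate 8, 4 without control replicate 9 and 5 without *jil-1* replicate 9.

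Genes of the V-ATPase, the proton pump of lysosomes, fell in 6 of 17 cases and rose in none, but 5 of the 6 had adjusted p between 0.022 and 0.047. The exception was *VhaM9.7-b*, with 97.2, 90.2, 98.0, 91.4 and 92.2 CPM in controls and 78.3, 80.1, 66.5, 72.1 and 84.3 CPM upon *jil-1* RNAi (log2 fold change -0.32, standard error 0.054, adjusted p = 0.00066). The count was 1 without control replicate 8 and 2 without control replicate 9, *jil-1* replicate 9 or replicate 11 of either condition, and 1 gene rose without *jil-1* replicate 5 or replicate 11 of either condition. Of 19 autophagy genes 1 rose (2 without control replicate 4, *jil-1* replicate 8 or replicate 11 of either condition), *Atg16*, which acts in the lipidation of Atg8, by 0.20 on the log2 scale (adjusted p = 0.0028). Among 12 genes of the response to amino acid and protein folding stress, the eIF2alpha kinase gene *Gcn2* had 171, 173, 168, 153 and 168 CPM in controls and 204.9, 209, 196, 188 and 177 CPM upon *jil-1* RNAi and rose without overlap (0.22, standard error 0.042, adjusted p = 0.0015). *Xbp1*, a transcription factor of the unfolded protein response, fell by 0.22 (adjusted p = 0.0064), and the other 10 did not pass the threshold, although 2 genes of the list rose without replicate 5 of either condition or *jil-1* replicate 8.

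Several phagocytosis receptor genes of hemocytes fell. *NimC1*, a receptor for bacteria, had 58.3, 52.5, 52, 49.9 and 56.7 CPM in controls and 31.7, 32.4, 29.9, 24.2 and 30.5 CPM upon *jil-1* RNAi (log2 fold change -0.87, standard error 0.067, adjusted p = 2.4e-07). *drpr*, the Draper receptor for apoptotic cells, had 184, 174, 197, 172 and 312 CPM in controls and 113, 115.5, 76.8, 77.7 and 155 CPM upon *jil-1* RNAi (-0.98, standard error 0.11, adjusted p = 1.1e-05). *Sr-CIV*, a scavenger receptor gene, had 30.8, 31.9, 32.8, 29.0 and 37.1 CPM in controls and 16.1, 15.3, 17.1, 15.5 and 24.3 CPM upon *jil-1* RNAi (-0.88, standard error 0.073, adjusted p = 5.9e-07). None of these overlapped between conditions. *eater*, a further receptor for bacteria, fell by 0.35 (adjusted p = 0.00042) with overlapping CPM.

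Over the hemocyte list 5 of 15 genes (33.3%) fell and 2 rose, with a median log2 fold change of -0.054. No hemocyte gene rose without replicate 11 of either condition, and 1 rose without replicates 4, 8 or 9 of either condition. The remaining gene that fell was *Hml*, hemolectin, by 0.44, named after its value was seen. *Pxn*, peroxidasin of the extracellular matrix, was the most abundant of the genes described that rose. It had 3814, 2272, 4743, 2361 and 1254 CPM in controls and 3843, 4383, 5454, 5366 and 3548 CPM upon *jil-1* RNAi, so that the controls spread widely and the conditions overlapped (log2 fold change 0.71, standard error 0.18, adjusted p = 0.011). Without replicate 11 of either condition *Pxn* did not pass the threshold (adjusted p = 0.058). The summed CPM of the 17 genes of the list was 4238 to 7466 in controls and 6094 to 8645 upon *jil-1* RNAi, and *Pxn* was a large part of it.

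Of 12 tested genes of the extracellular matrix 4 fell and none rose. The matrix metalloproteinase gene *Mmp1* had 205.3, 212, 200.2, 214 and 394 CPM in controls and 151, 154, 128, 131 and 264 CPM upon *jil-1* RNAi, with replicate 11 far above the rest in both conditions (log2 fold change -0.57, standard error 0.078, adjusted p = 8.4e-05). *wb*, a laminin alpha chain gene, fell by 0.33 (adjusted p = 0.0004). *SPARC*, which encodes a collagen-binding protein, had 2903, 2604, 2821, 2794 and 3092 CPM in controls and 2691, 2089.5, 2724, 1973 and 1776 CPM upon *jil-1* RNAi (-0.34, standard error 0.10, adjusted p = 0.021). The call for *SPARC* was lost without replicate 11 of either condition (adjusted p = 0.11) or without *jil-1* replicates 5 (0.052) or 9 (0.061). Without replicate 11 or without *jil-1* replicate 9, 2 genes of the list fell.

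Genes of the Imd and Toll pathways, which signal bacterial and fungal infection to NF-kappaB factors, fell in 7 of 22 cases (31.8%) and rose in none. The median log2 fold change was -0.13 and was negative in each of the 5 pairs. *PGRP-SA*, the peptidoglycan receptor upstream of Toll, had 95.9, 85.3, 163, 155 and 118 CPM in controls and 53.0, 55.7, 116, 130.2 and 74.8 CPM upon *jil-1* RNAi (log2 fold change -0.56, standard error 0.069, adjusted p = 3.4e-05). The ranges overlapped, batch 2 had the highest levels in both conditions, and within each batch the conditions were separate. *Rel*, the NF-kappaB factor of the Imd pathway, had 236, 214, 277, 268 and 328 CPM in controls and 204, 189.8, 204.8, 199 and 262 CPM upon *jil-1* RNAi (-0.32, standard error 0.047, adjusted p = 0.00019). The adaptor gene *Fadd* fell by 0.34 (adjusted p = 0.0017) and *key*, the gamma subunit of the IKK complex, by 0.27 (adjusted p = 0.0021). Of the antimicrobial peptide genes, the targets of these pathways, 5 of 13 had enough reads to be tested, and none passed the threshold (1 fell without *jil-1* replicate 4).

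**Figure D4:**
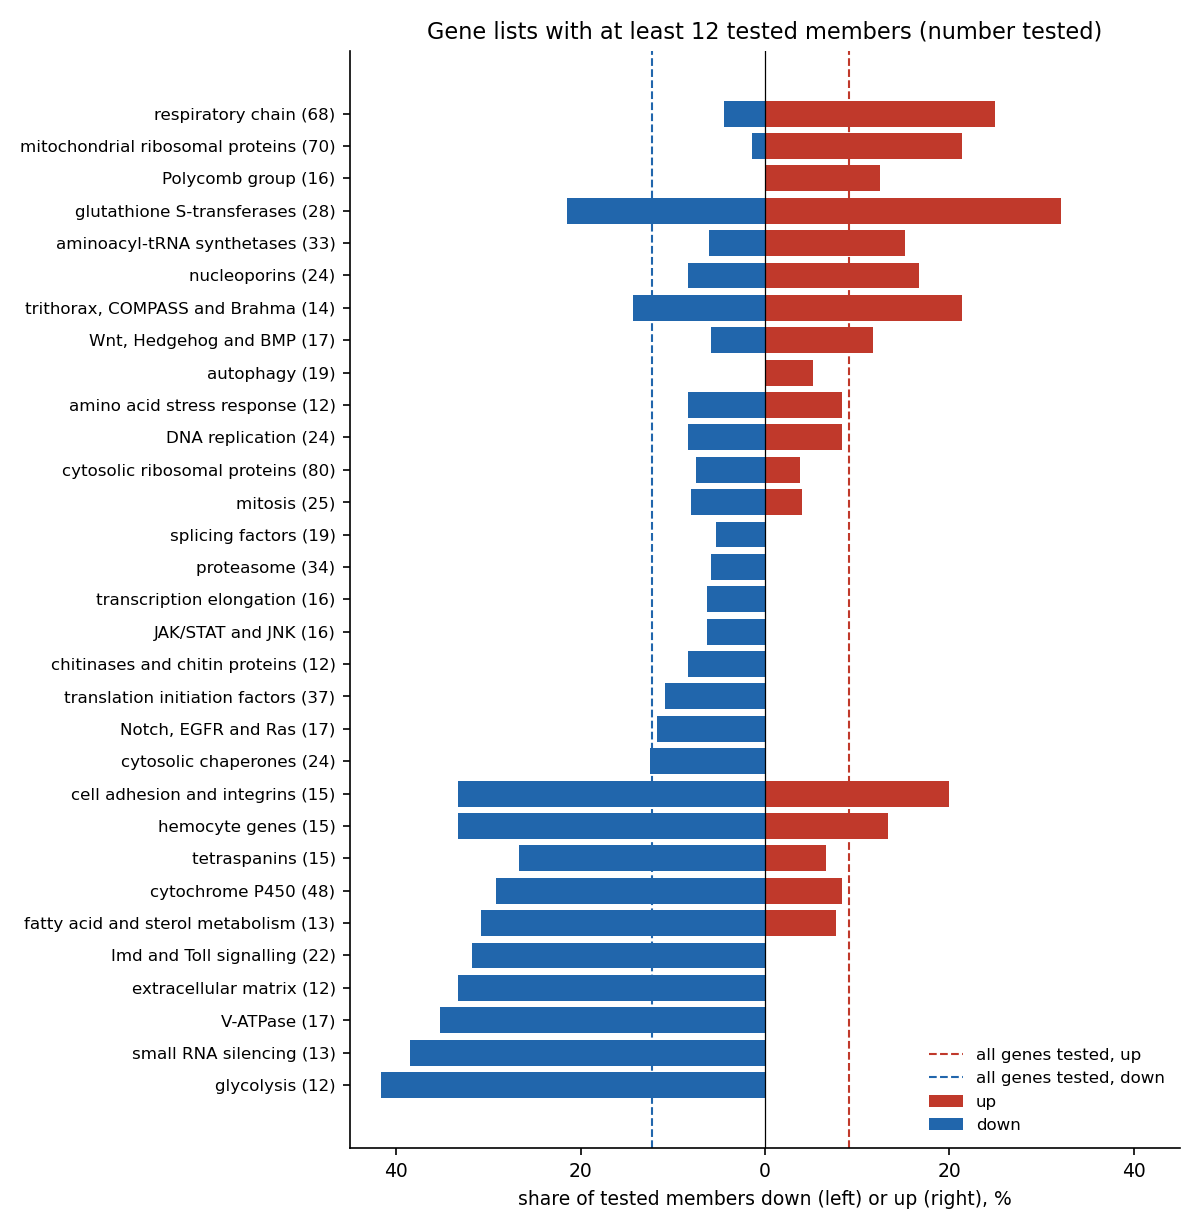
Share of the tested members of each gene list that rose (red, to the right) or fell (blue, to the left) upon *jil-1* RNAi, for lists with at least 12 tested members and with the number tested in parentheses. Dashed lines mark the 9.11% and 12.3% of all genes tested. The respiratory chain list reaches 25% to the right, and glycolysis 41.7% to the left.

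Among genes of developmental signalling, 2 of 17 in the Notch, EGFR and Ras list fell (11.8%, against 12.3% of all genes tested), the Notch ligand gene *Ser* and *Pvf2*, which encodes a ligand of the PDGF and VEGF receptor of hemocytes. *Ser* had 162, 155, 151, 142 and 129.6 CPM in controls and 109, 129.5, 93.9, 100.3 and 78.5 CPM upon *jil-1* RNAi, close to each other at the boundary but without overlap (log2 fold change -0.56, standard error 0.059, adjusted p = 9.2e-06). *Pvf2* had 87.3, 113, 74.5, 80.7 and 154 CPM in controls and 67.6, 64.5, 54.2, 59.6 and 96.6 CPM upon *jil-1* RNAi (-0.54, standard error 0.11, adjusted p = 0.0028). *Mad*, the transcription factor of BMP signalling, rose by 0.19 (adjusted p = 0.011). *usp*, the X-linked partner of the ecdysone receptor, fell by 0.18 (adjusted p = 0.0086). Among 16 genes of the JAK/STAT and JNK pathways none rose and at most 1 fell, with all libraries or with any 1 left out.

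Genes of cell adhesion fell in 5 of 15 cases and rose in 3. *Nrt*, neurotactin, had 5.81, 9.09, 8.10, 9.75 and 14.71 CPM in controls and 2.42, 2.76, 5.21, 2.11 and 3.37 CPM upon *jil-1* RNAi (log2 fold change -1.46, standard error 0.25, adjusted p = 0.00068). *mys*, the main integrin beta subunit, had 355, 347, 382, 359 and 486 CPM in controls and 287, 316, 299, 308 and 383 CPM upon *jil-1* RNAi (-0.27, standard error 0.042, adjusted p = 0.00025), and *Itgbn*, the other beta subunit, fell by 0.52 (adjusted p = 0.0092). *Dscam1*, a receptor with very many splice forms that also serves in immunity, fell by 0.41 (adjusted p = 0.007). The 3 rises became 1 without control replicates 4, 8, 9 or 11 or *jil-1* replicate 11. Of 15 tetraspanin genes 4 (26.7%) fell and 1 (6.67%) rose, against 12.3% and 9.11% of all genes tested. *Tsp42Eg* fell by 1.30 (adjusted p = 0.00044). Of this list 2 fell without replicate 11 of either condition, control replicates 4 or 8 or *jil-1* replicate 9. The 1 rise was lost without replicates 4, 5, 8 or 9 of either condition.

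Of 24 nucleoporin genes 4 rose, all autosomal, and 2 fell, both X-linked. *Nup43* had 42.9, 42.1, 46.1, 44.2 and 42.0 CPM in controls and 50.1, 49.7, 62.0, 63.3 and 52.5 CPM upon *jil-1* RNAi, without overlap (log2 fold change 0.35, standard error 0.051, adjusted p = 0.00016), and *Nup44A* rose by 0.23 (adjusted p = 0.0037). The X-linked *Nup35* had 50.4, 64.5, 63.1, 77.8 and 52.8 CPM in controls and 38.6, 47.4, 53.5, 56.6 and 42.5 CPM upon *jil-1* RNAi (-0.35, standard error 0.075, adjusted p = 0.0033), and *Elys*, which starts the assembly of pores on chromatin, fell by 0.18 (adjusted p = 0.0097). Of the 9 nuclear lamina genes 2 (22.2%) fell and 1 (11.1%) rose, against 12.3% and 9.11% of all genes tested. *LamC*, the A-type lamin, fell by 0.44 (adjusted p = 0.0064) and the SUN-domain gene *koi* by 0.23 (adjusted p = 0.011). The gene that rose was *klar*, described above. *LamC* did not pass the threshold when reads were counted without regard to strand (adjusted p = 0.28).

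Of 24 DNA replication genes 2 fell and 2 rose, 8.33% each against 12.3% and 9.11% of all genes tested, and the one with the smallest p was the X-linked helicase gene *Mcm6*, which fell by 0.21 (adjusted p = 0.011). No DNA replication gene rose without replicate 11 of either condition and 1 rose without control replicates 4, 5 or 8 or *jil-1* replicates 5 or 9, and 1 fell without control replicate 8. Of 25 mitosis genes, 19 splicing factor genes and 16 transcription elongation genes, at most 2 in each list rose and at most 2 fell, with all libraries or with any 1 left out. None of the 9 tested sex determination genes and none of the 4 telomere capping genes passed the threshold.

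Markers of testis and germline were mostly absent or low, and those of other cell types were mixed. Of 22 testis and germline markers 9 had no read in any of the 10 samples and 17 stayed below 1 CPM. The summed CPM was 32.1 to 38.1 in controls and 31.5 to 47.5 upon *jil-1* RNAi. For the 11 neuronal markers the sums were 57.3 to 68.8 and 56.2 to 67.1 CPM, and for the 11 muscle markers 45.6 to 56.1 and 37.5 to 46.8 CPM. Of these, 5 neuronal and 6 muscle markers stayed below 1 CPM. The sum for the 13 fat body and epithelial markers, 7 of which stayed below 1 CPM, was 1046 to 1171 CPM in controls and 997 to 1196 CPM upon *jil-1* RNAi. In this list genes of epithelial polarity moved in both directions. *sdt* had 22.5, 27.3, 22.8, 22.2 and 39.5 CPM in controls and 14.1, 16.6, 13.7, 14.03 and 25.02 CPM upon *jil-1* RNAi (log2 fold change -0.69, standard error 0.091, adjusted p = 6.2e-05). Its partner *crb* had 9.63, 7.76, 6.21, 7.94 and 19.1 CPM in controls and 15.2, 15.3, 11.4, 9.25 and 24.1 CPM upon *jil-1* RNAi, higher in every pair (0.60, standard error 0.11, adjusted p = 0.00088), and *baz* rose by 0.24 (adjusted p = 0.0028).

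On chromosome 4, a small chromosome rich in heterochromatin, 29 of 76 genes (38.2%) fell and none rose. The median log2 fold change was -0.16, but it ranged from 0.036 in pair 4 to -0.41 in pair 8, and the count was 18 without control replicate 8 or *jil-1* replicate 9. *bt*, a titin-like gene of this chromosome that also stands in the muscle list, had 28.7, 27.0, 25.2, 27.9 and 29.4 CPM in controls and 27.3, 25.1, 16.5, 16.4 and 22.7 CPM upon *jil-1* RNAi (log2 fold change -0.39, standard error 0.10, adjusted p = 0.0091). The difference was small in both pairs of batch 1 and larger in batches 2 and 3. On the X, 299 of 1432 genes fell and 77 rose (51 without control replicate 8).

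The response was set beside that to *jasper* RNAi in the same line and model, which shares the control samples. A direct test of *jil-1* against *jasper* RNAi (4 samples) called 302 genes (3.57%) higher and 238 (2.81%) lower, 6.38% of the genes tested. Against control, *jasper* RNAi raised 8.46% and lowered 11.9% of the genes, 20.3% in all. *Cyt-c1L* had a log2 fold change of 4.11 upon *jil-1* RNAi and -0.059 upon *jasper* RNAi (difference 4.17, standard error 0.19, adjusted p = 1.2e-09). The same test separated the conditions for *mmd* (-3.24 upon *jil-1* RNAi and -0.85 upon *jasper* RNAi, adjusted p = 0.0002), *nahoda* (-1.79 and -0.98, adjusted p = 3.3e-06), *NimC1* (-0.87 and -0.26, adjusted p = 6.7e-05) and *AGO3* (-1.66 and -0.81, adjusted p = 0.0053). *crb* had estimates of opposite sign, 0.60 and -0.73 (adjusted p = 5.8e-06), and *Cyp28a5* hardly changed upon *jasper* RNAi (-0.71 and -0.039, adjusted p = 0.00022). For other genes the estimates were near each other. *Gapdh2* had -0.49 and -0.55 (difference 0.057, standard error 0.04), *Rpt3* -0.35 and -0.35 (difference 0.004, standard error 0.055) and *klar* 0.17 and 0.17 (difference 0.0018, standard error 0.049). Of 107 of the genes described here, all called in S2 cells, 22 differed between both RNAi conditions and 85 did not pass the threshold. They were picked by their *jil-1* RNAi values, which also enter this test. The count is therefore not comparable with the 6.38% of all genes tested.

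In female Kc cells, with 4 samples for each condition and their own controls, fewer genes passed the threshold upon *jil-1* RNAi. The Kc *jil-1* RNAi samples had 2513223 to 14557831 reads on the strand of genes. Their median was 6138270.5, against 10972867 in the S2 *jil-1* RNAi samples. With unlike depth and numbers of samples, the shares called do not compare the size of the response between lines. There 119 of 8846 genes (1.35%) rose and 193 (2.18%) fell, 3.53% in all. Over the 7908 genes tested in both lines, the log2 fold changes of S2 and Kc cells had a Pearson correlation of 0.15 across genes, as a description, since genes are not replicates. Of the 756 genes that rose in S2 cells 64.8% had a positive estimate in Kc cells and 20 rose there, and of the 961 that fell 64.0% had a negative estimate and 56 fell. A test of the difference between lines called 569 genes (7.2%), 257 (3.25%) with a higher and 312 (3.95%) with a lower response in S2 cells.

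*Cyt-c1L* rose in both lines, but less in Kc cells (1.84, standard error 0.25, interaction adjusted p = 0.0004). *Sik2* rose by 0.98 in Kc cells (standard error 0.12), and the difference did not pass the threshold (adjusted p = 0.16). *Nnf1b* had -0.074 in Kc cells (adjusted p = 1.6e-07 for the difference) and *CG40006* -0.30 (adjusted p = 1.6e-07). The piRNA genes differed between lines, with Kc log2 fold changes of -0.39 for *AGO3*, -0.13 for *aub* and 0.50 for *piwi* (adjusted p = 0.00034, 1.8e-05 and 0.035). Their levels were unlike as well, with means of 241, 203 and 7.61 CPM in Kc controls and 15.5, 25.4 and 166 CPM in S2 controls. The Kc estimate for *piwi* had a standard error of 0.30. The hemocyte receptors did not move together. In Kc cells *NimC1* had 0.31 and *drpr* 0.053, whereas *eater* fell further than in S2 cells, by 1.34 (interaction adjusted p = 0.017). *Ser* fell by 2.02 in Kc cells (adjusted p = 0.00054), and *wb* rose there by 1.49 (adjusted p = 0.00033). The level of *wb* was low in Kc cells, with means of 2.95 CPM in controls and 8.27 CPM upon *jil-1* RNAi, against 97.3 CPM in S2 controls.

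The mitochondrial lists had medians of the other sign in Kc cells, -0.11 for ribosomal proteins and -0.15 for the respiratory chain. Among them 12 of 70 and 17 of 68 genes had a higher response in S2 cells by the interaction test and none a lower one. For all genes tested in both lines the shares were 3.25% and 3.95%. *ND-B14.7* had -0.24 in Kc cells (adjusted p = 0.00025 for the difference) and *mRpS17* -0.072 (adjusted p = 0.019). Cytosolic ribosomal protein genes had a median of -0.18 in Kc cells, where 10 of 80 fell, and this was -0.14 for those on the X and -0.19 for those on the autosomal arms. By the interaction test 13 of these 80 genes had a higher response in S2 cells and none a lower one. A higher response in S2 cells was thus not particular to the mitochondrial lists. *Gapdh2* had -0.35 (standard error 0.14) in Kc cells and *Rel* -0.16 (standard error 0.08), and neither differed between lines at the threshold (adjusted p = 0.54 and 0.27).

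**Figure D5:**
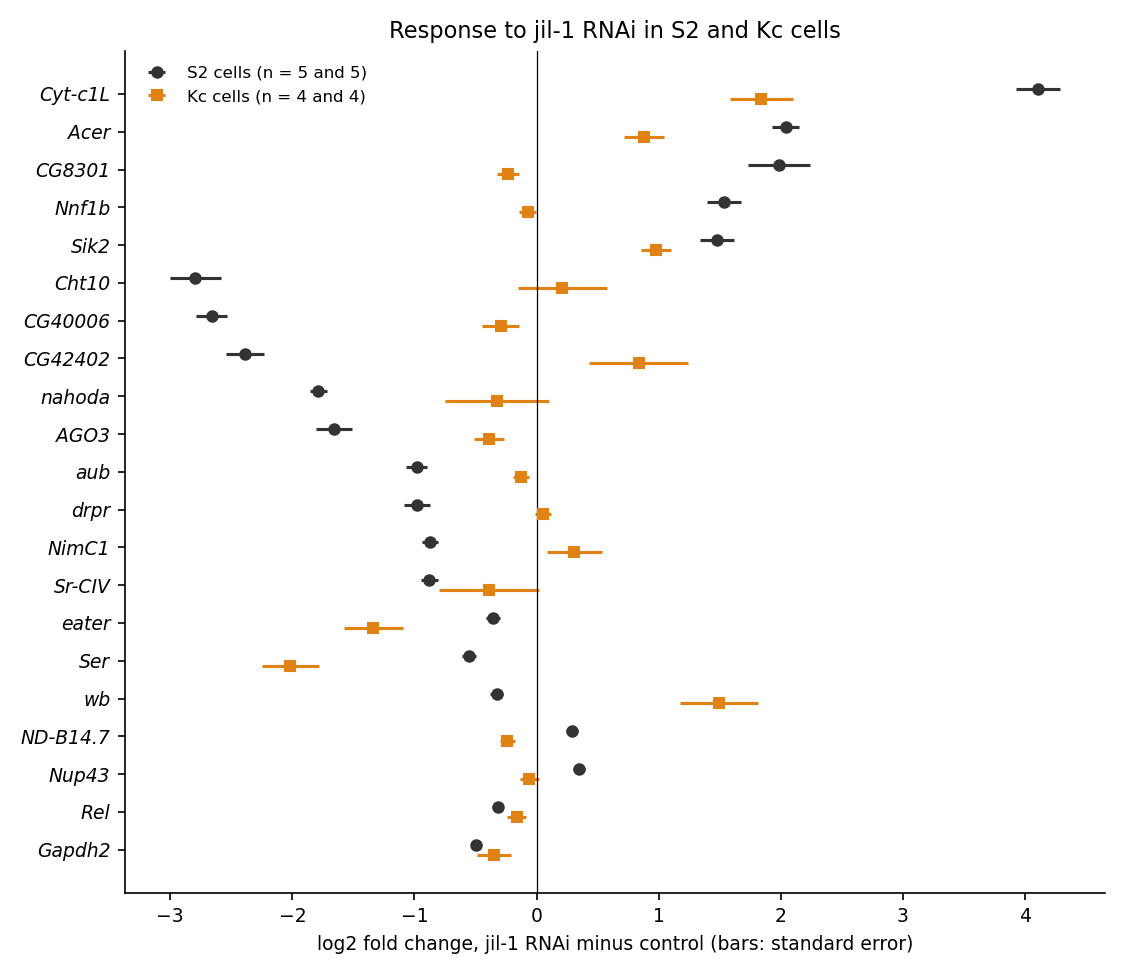
Log2 fold change upon *jil-1* RNAi in S2 cells (dark circles, 5 samples for each condition) and Kc cells (orange squares, 4 for each condition) for 21 genes, with standard errors as bars. Both lines lie on the same side of 0 for *Cyt-c1L*, *Acer* and *Sik2*, while *Ser* and *eater* lie further left in Kc cells and *wb* lies on opposite sides.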

How the data were processed

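Total RNA of S2 and Kc cells was depleted of ribosomal RNA, and strand-specific libraries were sequenced in pairs. The authors aligned the reads to the release 6 genome (BDGP6) with STAR 2.6.0, discarded reads with more than 1 position and deposited raw read counts per gene for each sample, without regard to strand, on the opposite strand and on the strand of the gene. The last were used here. RSEM 1.3.0 is also named in the submitters' processing notes, and its values were not used. Reads assigned to no gene (4.79% to 5.91% of the S2 control and *jil-1* RNAi libraries) stayed out of library sizes.

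Of 17489 genes, 17215 were found in the Ensembl release 115 annotation of the same genome release, which gave names, chromosomes and lengths. *JIL-1* was removed before scaling. Genes with reads in all S2 samples were fitted with edgeR 4.0.16 in R 4.3.3 (TMM, quasi-likelihood) in 1 model of control, *jasper* and *jil-1* RNAi with batch as a block, and p-values were adjusted over all genes. The script was tested on simulated data. Kc cells were fitted likewise, and the lines were compared by an interaction term over 7908 genes. The study's methods used DESeq2 with the same block, which was an alternative here (version 1.42.0). CPM values are scaled by TMM, except those of marker genes and marker sums, which are relative to all reads on genes. Standard errors were derived from the log2 fold change and its F statistic (fold change over root F). Counts limit the precision, and all errors refer to the spread between samples. Of 20 sample pairs of 1 condition none agreed within sampling noise (chi-square per degree of freedom 3.48 to 58.1).

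Samples with the same number deviated together from their group means (correlations 0.40, 0.19, 0.14, 0.33 and 0.64 for replicates 4, 5, 8, 9 and 11). Samples of the same batch with other numbers also did, with correlations up to 0.42. Within a batch, the difference between both numbers in controls was correlated with that upon *jil-1* RNAi at 0.14 in batch 1 and -0.12 in batch 2. A pairing by number beyond the shared batch was therefore not shown, and same-numbered pairs serve as a description.

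The comparison, the 48 gene lists (1110 genes, 902 of them tested, and 26 entries not matched) and the tests were chosen with earlier results of these data known. Genes were named by a rule: among called genes whose mean log2 CPM was 1 or more (prior count 2) and that kept 1 direction in all 5 pairs, the 10 largest rises and falls and the 5 most abundant of each, and up to 4 called members of each list with the smallest p. Of these 145 genes, those from the lists are mostly described where the call was kept with any 1 library left out. A gene can stand in several lists. Alternatives were other scalings and filters, unstranded counts, other blocks, fewer samples and each library left out. Sequences, promoter motifs and transposons were not analysed here.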

Additional observations from a re-analysis of the deposited data

Results flagged for a closer look

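For 41 of 102 genes described that were tested in both lines, the response to *jil-1* RNAi differed between S2 and Kc cells by the interaction test of edgeR at an adjusted p of 0.05. Over all genes tested in both lines the share was 7.2%. The 102 genes were picked by their S2 values, which also enter this test, so that both shares are not comparable. The values that follow are log2 differences, S2 minus Kc. The S2 response was higher for *Cyt-c1L* (2.25), *Acer* (1.15), *CG8301* (2.19), *CG6495* (1.23), *CG10738* (1.64), *Nnf1b* (1.60), *CtsL1* (0.43), *mRpL46* (0.41), *mRpL2* (0.37), *mRpS17* (0.42), *ND-B14.7* (0.51), *ND-39* (0.35), *ND-13B* (0.39), *GstE13* (0.55), *eater* (0.98), *Ser* (1.43) and *Nup43* (0.39). It was lower, with a positive estimate in Kc cells, for *Cht10* (-3.01), *CG42402* (-3.33), *Cyp12a5* (-2.47), *nAChRalpha4* (-2.08), *His3.3B* (-0.30), *piwi* (-0.91), *eIF4H1* (-0.39), *Cyp28a5* (-1.39), *NimC1* (-1.20), *drpr* (-1.04), *wb* (-1.66), *mys* (-0.43), *Nrt* (-1.70), *sdt* (-1.30) and *bt* (-1.43). It was lower, with an estimate below 0 in both lines, for *CG40006* (-2.39), *CR18228* (-1.47), *nahoda* (-1.66), *AGO3* (-1.29), *aub* (-0.87), *bmm* (-0.38), *GstE7* (-0.39), *Rpt3* (-0.29) and *Mmp1* (-0.43). *eater* and *Ser* have positive differences because both fell further in Kc cells. S2 and Kc samples have their own controls and batches, and the part of the batches in these differences was not tested.

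In 32 of the 214 groups of 5 samples examined, 1 sample lay far from the other 4 (gap to the nearest over the range above 0.71). Chance flags about 1 in 20 such groups. Replicate 11 was that sample in 30 of them. Control replicate 11 was the highest, in CPM, for *CG8301* (2.19), *CG6495* (7.46), *mmd* (36), *CG4267* (18.4), *Cyp12a5* (29.5), *nAChRalpha4* (23.6), *klar* (911), *aub* (47.8), *drpr* (312), *Mmp1* (394), *mys* (486), *Itgbn* (108), *Tsp42Eg* (6.15) and *crb* (19.1), and the lowest for *eIF5* (254), *CCT2* (460.1), *CCT6* (416), *Atg16* (86.2), *Elys* (193) and *Mcm6* (135). Replicate 11 of *jil-1* RNAi was the highest for *Acer* (24.9), *CG8301* (7.4), *aub* (21), *Cyp4p3* (3.59), *Sr-CIV* (24.3), *Mmp1* (264), *Rel* (262) and *sdt* (25), and the lowest for *nahoda* (4.46) and *eIF5* (208). The remaining cases were control replicate 4 for *ND-B14.7* (65.6) and control replicate 9 for *Gcn2* (153). Replicate 11 is the only sample of batch 3 in both conditions, so that its own deviation and that of its batch cannot be told apart.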

How the results depend on the processing

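Without the batch block 202 genes rose and 347 fell, and 22 genes had a higher and 48 a lower response in S2 than in Kc cells. With 1 library left out between 465 and 746 genes rose and between 756 and 978 fell, and the lowest number of rises was that without control replicate 8. With the replicate block in place of the batch block 758 genes rose and 1037 fell. The same block gave 280 genes with a higher and 388 with a lower response in S2 than in Kc cells. Among the genes named by the rule the replicate block changed the call of *Orc4*, *Bub1* and *topi*, which are not described in the text, and of no other. Rises and falls numbered 634 and 1022 with DESeq2, 752 and 1070 with RLE scaling, 636 and 1168 with TMM from autosomal genes, 816 and 1028 with the filter of edgeR, 820 and 1121 for genes with a read in any sample, 748 and 953 with counts without regard to strand, 684 and 963 without the *jasper* RNAi samples and 609 and 811 with batches 1 and 2 alone. No named gene changed direction under any of these settings. Of the 145 genes named by the rule, 100 kept their call in all 10 fits with 1 library left out, and 85 did not pass the threshold without the batch block. *Clamp*, *Sce* and *AGO2* kept it in 4, 5 and 5 of the 10 fits. Except where fewer samples entered a fit, the cause of a changed count was not tested. Among the 1693 genes with the lowest levels (up to 5.15 CPM) the called changes had medians of 0.91 for rises and -1.06 for falls on the log2 scale.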

Other observations

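Among the lists not described above, at most 1 of 6 genes of the NSL complex fell and none rose, and at most 2 of 8 genes of interband and insulator proteins rose and at most 1 fell, with all libraries or with any 1 left out. Of 12 tested genes for chitinases and chitin proteins only *Cht10* fell (2 genes without control replicate 4 or *jil-1* replicate 5), with a median log2 fold change of -0.039 over the list. Of 10 genes of the tricarboxylic acid cycle 1 fell and none rose, with a median log2 fold change of -0.037. With any 1 library left out at most 1 fell and at most 1 rose. Small noncoding RNA genes, which such libraries capture unevenly, were rarely called. Of 183 snoRNA genes 1 fell, and their median changed sign between pairs, from -0.61 in pair 8 to 0.37 in pair 5. Among 44 pseudogenes 8 fell and none rose. The median of the 13 tested genes of the mitochondrial genome ranged from -1.28 in pair 8 to 0.77 in pair 4.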
